A study of Homo sapiens with 2 samples.

Results

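Cycling mesenchymal cells of human blood-generating heart-forming organoids (BG-HFOs) were described from single-cell RNA sequencing of 2 whole organoids collected on day 14 of differentiation. BG-HFOs form when aggregates of pluripotent stem cells are embedded in Matrigel, taken through WNT activation and then inhibition, and supplied with hemato-endothelial growth factors and cytokines. Both organoids, 32.7 and 33.10, came from hES3 NKX2.5-eGFP, an embryonic stem cell line with a green fluorescent reporter at the cardiac gene NKX2-5, and both received the same protocol, so they form 1 group. The organoids were dissociated and captured separately, and they were the 2 replicates of every comparison. They held 16866 and 19948 barcodes with 191152562 and 233818881 unique molecular identifiers (UMIs, each counting 1 captured transcript).

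Members were chosen by measured UMIs. They were barcodes with 500 to 9000 genes and under 15% mitochondrial UMIs that had at least 3 UMIs of COL3A1, a fibrillar collagen, and at least 4 UMIs of MKI67 and TOP2A together. They also had no UMI of CDH5 (endothelium), PTPRC or RUNX1 (blood), at most 3 of MYH6 (cardiomyocytes) and at most 2 of AFP (liver-type endoderm). This gave 569 cells of 36814 barcodes, 215 from organoid 32.7 and 354 from organoid 33.10. Cells that met the same limits with no MKI67 or TOP2A UMI served as non-cycling mesenchymal cells, with 2730 in each organoid. A further 406 and 392 cells had 1 to 3 such UMIs and were put in neither class. The cells were selected on the UMIs of these 8 genes, whose values below are a description only.

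Mesenchyme is the loosely arranged, matrix-secreting tissue that supplies fibroblasts, mural cells and epicardial derivatives to the growing heart. A dividing cell copies its DNA in S phase with the help of licensing factors, polymerases and nucleotide enzymes, and then builds the spindle and kinetochore machinery in G2 and M phase. TOP2A, which untangles DNA, and MKI67, a coat protein of mitotic chromosomes, are most abundant late in this cycle. The 2 waves of genes are known for different promoter elements. E2F sites mark many S phase genes, and the cell cycle genes homology region (CHR), often near CCAAT boxes, marks many genes of G2 and M phase.

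These elements could be seen in the promoters of the genes that members expressed. The windows below are the 90 bases before the gene start from RefSeq (GRCh38.p14, on the strand given), for the 3 genes of the G2/M list and the 3 of the S phase list with the highest levels in members among those with the list's element in this window. In the G2/M genes, capitals mark the CHR letters TTTGAA or their reverse complement TTCAAA, and CCAAT or its reverse complement ATTGG. CKS1B and CKS2 encode small subunits of cyclin-dependent kinases.
CKS1B, chr1:154974591-154974680, plus strand: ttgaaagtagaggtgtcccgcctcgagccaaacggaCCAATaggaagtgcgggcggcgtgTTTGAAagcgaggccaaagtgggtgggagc
JPT1, chr17:75154513-75154602, minus strand: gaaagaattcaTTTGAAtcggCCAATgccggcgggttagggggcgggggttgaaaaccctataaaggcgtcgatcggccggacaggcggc
CKS2, chr9:89311105-89311194, plus strand: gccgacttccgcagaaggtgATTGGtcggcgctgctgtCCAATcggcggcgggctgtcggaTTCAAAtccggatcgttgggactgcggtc
In the S phase genes TYMS (thymidylate synthesis), HELLS (a chromatin helicase) and PCNA (the sliding clamp of DNA polymerases), capitals mark the E2F strings TTTCCCGC, TTTCGCGC, TTTGCCGC or TTTGGCGC on either strand, and CCAAT matches are left in lower case.
TYMS, chr18:657563-657652, plus strand: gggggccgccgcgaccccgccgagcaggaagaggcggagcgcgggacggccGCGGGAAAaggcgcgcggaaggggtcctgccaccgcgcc
HELLS, chr10:94545698-94545787, plus strand: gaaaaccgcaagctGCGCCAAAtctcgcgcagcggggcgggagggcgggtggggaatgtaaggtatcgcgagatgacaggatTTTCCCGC
PCNA, chr20:5126623-5126712, minus strand: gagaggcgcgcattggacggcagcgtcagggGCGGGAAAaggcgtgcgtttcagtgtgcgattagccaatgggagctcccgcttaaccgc

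Over the 250 bases before the start, searched on both strands with overlapping matches counted, TTTGAA occurred in 24 of the 45 matched G2/M genes (53.3%) and in 2 of the 32 matched S phase genes (6.25%). It occurred in 9.18% of the promoters of genes tested in these cells. The E2F strings showed the opposite split, with 12 of 32 S phase genes (37.5%) and 2 of 45 G2/M genes (4.44%) against 4.17% of tested genes. CCAAT did not separate the lists, being present in 68.8% of the S phase and 68.9% of the G2/M promoters, both above the 34.5% of tested genes. TTTGAA and CCAAT together occurred in 21 G2/M promoters (46.7%) and in 3.52% of those of tested genes. A string match is a description of letters and not of a bound site.

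The label could be checked with markers that the rule did not use. PRRX1, a transcription factor of limb, head and heart mesenchyme, was detected in 53.5% and 56.2% of members in organoids 32.7 and 33.10. In non-cycling endothelial cells (CDH5 at least 3 UMIs, COL3A1 at most 2), which should lack it, the shares were 1.84% and 1.51%, and in the 44 and 37 cycling endothelial cells 13.6% and 8.11%. Median depths were 17446 and 16623.5 UMIs in members and 14132 and 12279 in those endothelial cells. COL1A1, the chief chain of type I collagen, had a UMI in 100% and 98.0% of members, and PDGFRA, a receptor of mesenchymal cells, in 75.3% and 77.7%. The epicardial factors WT1 and TCF21 had a UMI in 48.8% and 55.6% and in 63.7% and 65.3%. In non-cycling and cycling endothelial cells these 4 genes had a UMI in at most 8.90% and at most 16.2% of cells, both values being those of COL1A1.

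Levels were summed over the cells of a class in each organoid and are given as CPM, UMIs per 1000000 UMIs of that sum. PRRX1 stood at 91.4 and 109 CPM in members and at 6.91 and 4.37 CPM in cycling endothelial cells. PDGFRB was at 68.2 and 78.6 CPM against 0 and 1.09 CPM, and COL1A1 at 1102 and 867 CPM against 5.18 and 7.66 CPM. The mesenchymal markers of both organoids were thus far above those of cycling endothelium, as the COL3A1 rule had set. PDGFRA did not set members apart from non-cycling cardiomyocytes (MYH6 at least 10 UMIs). It was at 176 and 151 CPM in members and at 153 and 155 CPM in those cells. PRRX1 stood at 0.819 and 1.09 CPM in those cardiomyocytes and COL1A1 at 59.7 and 58.8 CPM. Other epicardial markers were mixed. KRT19 (300 and 198 against 7.78 and 4.37 CPM), TBX18 (44.8 and 48.6 against 0.864 and 7.66) and BNC1 (19.4 and 7.85 against 0 and 6.56) were higher in members than in cycling endothelial cells. ALDH1A2 was lower, at 6.72 and 3.32 against 12.1 and 18.6 CPM. In members SEMA3D was low at 1.49 and 4.53 CPM, and UPK3B was at 0 in both organoids. Of the rule genes, MKI67 was at 224 and 233 CPM and TOP2A at 579 and 499 CPM in members, COL3A1 at 1328 and 1007 CPM.

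**Figure D1:**
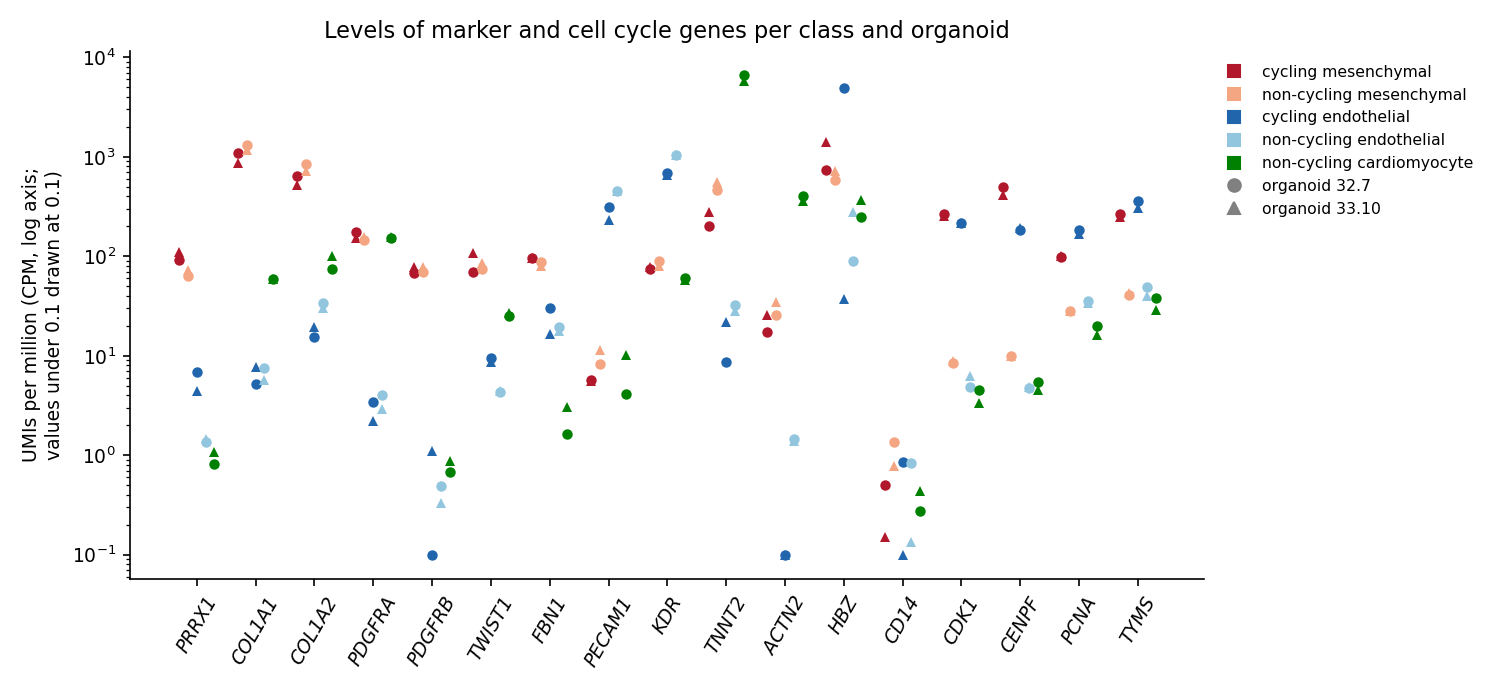
Levels of 17 marker and cell cycle genes in CPM (log axis) for 5 cell classes, each point being 1 class in 1 organoid (circle 32.7, triangle 33.10). Mesenchymal genes such as PRRX1 and COL1A1 sat high in cycling and non-cycling mesenchymal cells and low in endothelial cells, and CDK1 and CENPF sat high in both cycling classes.

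Transcripts of other cell types were also present in members, and globins were abundant among them. Summed over 13 endothelial genes, members held 737 and 646 CPM, led by EGFL7 at 385 and 296 CPM, while PECAM1 was at 5.73 and 5.58 CPM against 314 and 233 CPM in cycling endothelial cells. The 12 erythroid genes summed to 2313 and 3775 CPM, with HBZ, an embryonic globin, at 745 and 1396 CPM and HBG2, a fetal one, at 749 and 1138 CPM. In organoid 33.10 both were above COL1A1. The 15 cardiomyocyte genes summed to 1207 and 1392 CPM. The 9 megakaryocyte genes reached 183 and 423 CPM, led by PF4, and 11 macrophage and granulocyte genes 52.8 and 43.2 CPM. Blood genes made up at least 1% of the UMIs in 12 members (5.58%) of organoid 32.7 and 23 (6.50%) of organoid 33.10, and 12 and 31 members had high Scrublet doublet scores. The neural crest factor FOXD3 was at 0, and SOX10 at 0 and 0.302 CPM.

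The cycling share was higher in mesenchymal cells than in endothelial cells and cardiomyocytes of both organoids. Members made up 6.42% (exact binomial 95% interval 5.61 to 7.30) of the cells past the mesenchymal gate in organoid 32.7 and 10.2% (9.20 to 11.2) in organoid 33.10. The same cycle rule gave 2.96% of endothelial cells in each organoid, and 1.90% and 2.13% of cardiomyocytes (MYH6 at least 10 UMIs). The intervals of the 2 organoids did not overlap, but they cover counting error only, and with both organoids in 1 group no test was made. The rule counts raw UMIs, and members were deeper, with medians of 17446 and 16623.5 UMIs beside 8432.5 and 8255 in non-cycling mesenchymal cells. Shallower cells were left out when each cell was thinned to 5000 UMIs, which kept 2512 of 3351 and 2785 of 3476 mesenchymal cells, 1412 of 1489 and 1152 of 1250 endothelial cells, and 550 of 683 and 719 of 797 cardiomyocytes. Of the cells kept, 3.62% and 5.31% of mesenchymal cells still had at least 4 cycle UMIs, against 0.850% and 1.13% of endothelial cells and 1.45% and 0.695% of cardiomyocytes. At least 1 cycle UMI of 5000 was found in 14.3% and 18.6% of mesenchymal, 4.89% and 5.73% of endothelial and 5.09% and 4.73% of cardiomyocyte barcodes.

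The threshold of 4 UMIs cut through a continuous range. Just outside it, with 3 UMIs, lay 39 and 58 cells, and just inside, with 4, lay 23 and 54. After thinning, the cells with 3 UMIs had medians of 13 and 17 UMIs from the 43 genes of the S phase list and 20 and 21 from the G2/M list without MKI67 and TOP2A. Those with 4 had 19 and 16 S phase and 23.5 and 24 G2/M UMIs, so both sides of the limit expressed the cycle lists well above non-cycling mesenchymal cells, which had 3 and 3 S phase and 5 and 6 G2/M UMIs. Cells with 8 or more cycle UMIs had 13 and 15 S phase and 40 and 38.5 G2/M UMIs.

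Members held more G2/M than S phase transcripts, which a choice by 2 late-cycle genes favours, and their values here are a description. Per 5000 UMIs, a median member held 14 and 15 S phase and 34 and 34 G2/M UMIs in the 2 organoids, and 85.5% and 86.2% of members had more of the second. The G2/M list is the longer one, and 67.3% and 66.3% of non-cycling mesenchymal cells also had more of it. Even so, 31.9% and 37.1% of members carried at least 20 S phase UMIs, against 1.69% and 3.07% of non-cycling mesenchymal cells. No cell was assigned to a phase. Cycling endothelial cells (44 and 37 cells) had medians of 20.5 and 29 S phase and 26 and 27 G2/M UMIs, and 70.5% and 54.1% of them held more G2/M than S phase transcripts. Cycling cardiomyocytes, with 13 and 17 cells, had 19 and 21 S phase and 40 and 36 G2/M UMIs. They were under the minimum of 20 cells per organoid set for a fit and entered no test.

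**Figure D2:**
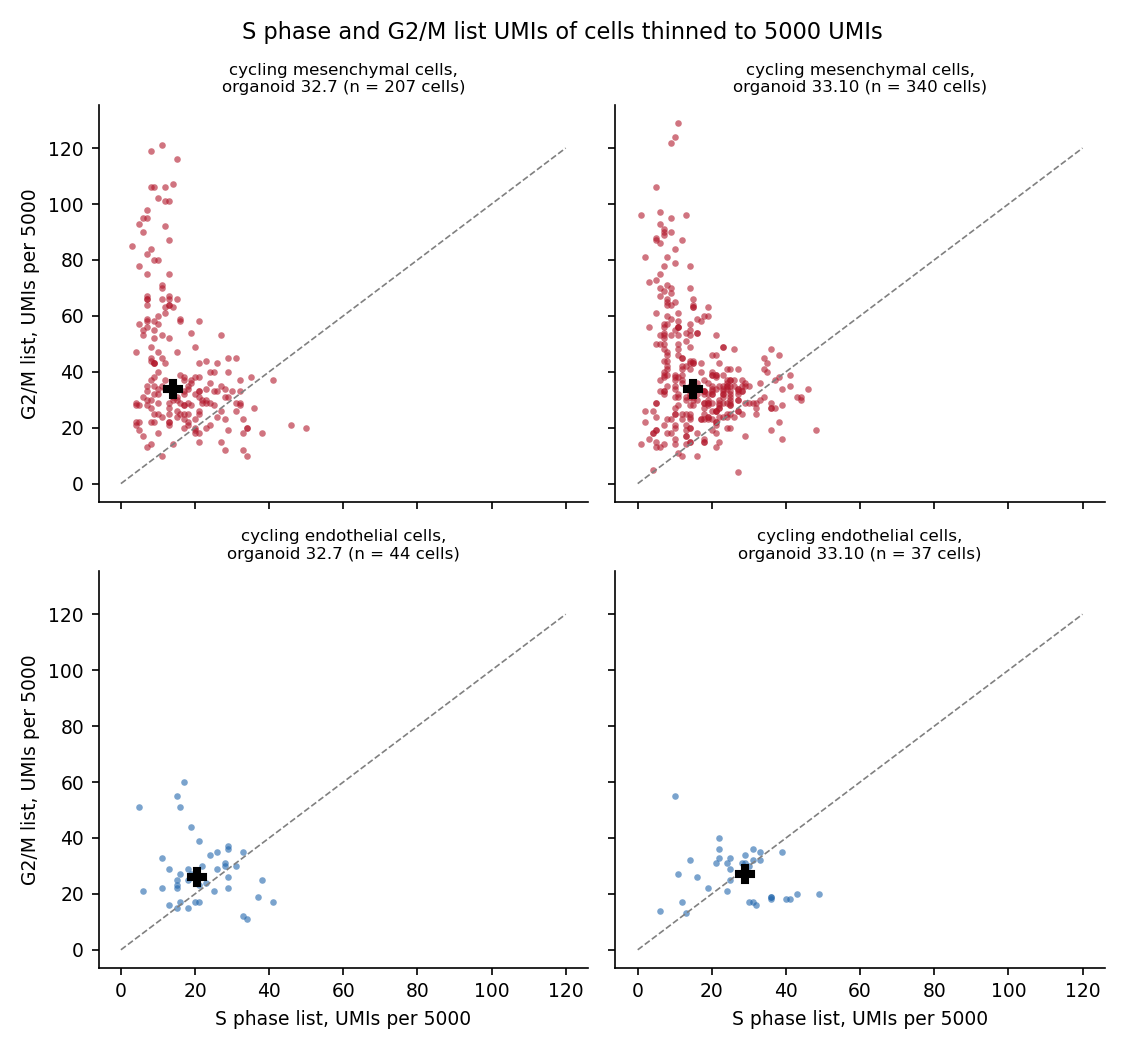
S phase list UMIs (x axis) against G2/M list UMIs (y axis) of single cells thinned to 5000 UMIs, 1 panel for each cycling class and organoid. Black crosses mark the medians and the dashed line equal counts; mesenchymal cells reached far higher G2/M counts, and their medians lay well above the line, which the endothelial median of organoid 33.10 did not.

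The cycle genes themselves were compared between cycling mesenchymal and cycling endothelial cells, which met the same cycle rule, to ask whether the 2 lineages were caught in the same parts of the cycle. With all cells used, G2/M genes were higher and S phase genes lower in the mesenchymal cells. With members matched to the endothelial cells in UMIs, 14 S phase genes were lower. Only 7 G2/M genes were higher there, a share near that of all genes, while the list median stayed above that of all genes. Matching left 44 and 36 members. By the quasi-likelihood test of edgeR, with p-values adjusted by Benjamini and Hochberg's method over 18427 genes, 31 of 52 tested G2/M genes were higher and none lower, and 21 of 43 S phase genes were lower and none higher. Of all genes tested, which include those the lineage rule fixed, 17.4% were higher and 12.7% lower, 30.1% together. The median log2 change was 0.61 for the G2/M list and -0.51 for the S phase list, beside 0.15 for all genes. Without TMM scaling the median of all genes moved to 0.03 and the share of higher among all calls from 57.8% to 48.0%, while the list counts became 24 higher and 28 lower, beside 14.6% higher and 15.9% lower of all genes.

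Among the G2/M genes, CENPF, a kinetochore protein, was at 492 and 414 CPM in members and 183 and 192 CPM in cycling endothelial cells, a log2 difference of 1.40 ± 0.13 (SE; edgeR adjusted p = 1.06e-05). UBE2C, an enzyme of the complex that destroys mitotic cyclins, stood at 346 and 281 against 137 and 104 CPM (log2 difference 1.49, edgeR adjusted p = 7.58e-05). The mitotic cyclin gene CCNB2 was at 113 and 88.7 against 43.2 and 42.6 CPM, and HMMR, a spindle protein, at 152 and 155 against 70.0 and 47.0 CPM. In all 4 genes both mesenchymal sums lay above both endothelial sums, and each passed the test in all settings tried. PSRC1, a regulator of spindle microtubules, had the largest difference of the list (32.6 and 25.4 against 3.46 and 3.28 CPM, log2 difference 3.22, edgeR adjusted p = 0.00013). The centrosome kinase genes AURKA and NEK2 differed by 0.87 and 1.77 on the log2 scale. The 3 genes whose promoters are printed above also passed, with CKS1B at 0.82, JPT1 at 0.79 and CKS2 at 0.79. The calls of AURKA, NEK2, CKS1B, JPT1 and CKS2 were lost when members were matched to the endothelial cells in UMIs (highest edgeR adjusted p over the settings 0.301, 0.163, 0.064, 0.0554 and 0.151), and that of PSRC1 was kept there (0.00193).

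On the S phase side, CCNE2, the cyclin that starts DNA replication, was at 18.9 and 17.8 CPM in members and 55.3 and 67.8 CPM in cycling endothelial cells (log2 difference -1.61 ± 0.21, edgeR adjusted p = 0.000138). TIPIN, which guards the replication fork, was at 27.6 and 26.0 against 78.6 and 89.7 CPM (log2 difference -1.52). The uracil repair enzyme gene UNG was at 13.7 and 10.9 against 32.0 and 36.1 CPM, and RRM2, a subunit of the enzyme that makes deoxynucleotides, at 166 and 184 against 287 and 313 CPM. These 4 genes kept their call in all settings tried. MCM6, part of the replicative helicase, stood at 34.6 and 35.8 against 73.4 and 74.4 CPM and PCNA at 99.1 and 101 against 185 and 168 CPM. The PCNA call was lost in 1 setting (highest edgeR adjusted p = 0.159) and the MCM6 call in 2 (highest 0.0603). TYMS at 265 and 251 against 360 and 307 CPM did not pass (edgeR adjusted p = 0.284), nor did HELLS (0.0571). Of the 2 named genes that did not pass here, 1 passed with the organoid as a block.

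Cycling endothelial cells were deeper, with medians of 25782 and 24200 UMIs. With members matched to them in UMIs, an alternative chosen after seeing the data, 14 S phase genes were lower (median -0.52) and 7 of 52 G2/M genes higher (median 0.26, beside -0.04 for all genes). Of all genes tested in that setting 12.7% were lower and 10.5% higher, so the share of G2/M genes higher was near the background there. Matching also cut members from 215 and 354 cells to 44 and 36. Whether depth or the smaller number of cells lowered the number of calls was not tested. Globin transcripts also differed, since HBZ reached 4891 CPM in the 44 cycling endothelial cells of organoid 32.7 and 37.2 CPM in organoid 33.10. Without cells rich in blood transcripts, also chosen after seeing the data, 28 S phase genes were lower (median -0.65) and 25 G2/M genes higher (median 0.46, beside 0.01 for all genes), with 17.0% of all genes lower and 14.6% higher.

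**Figure D3:**
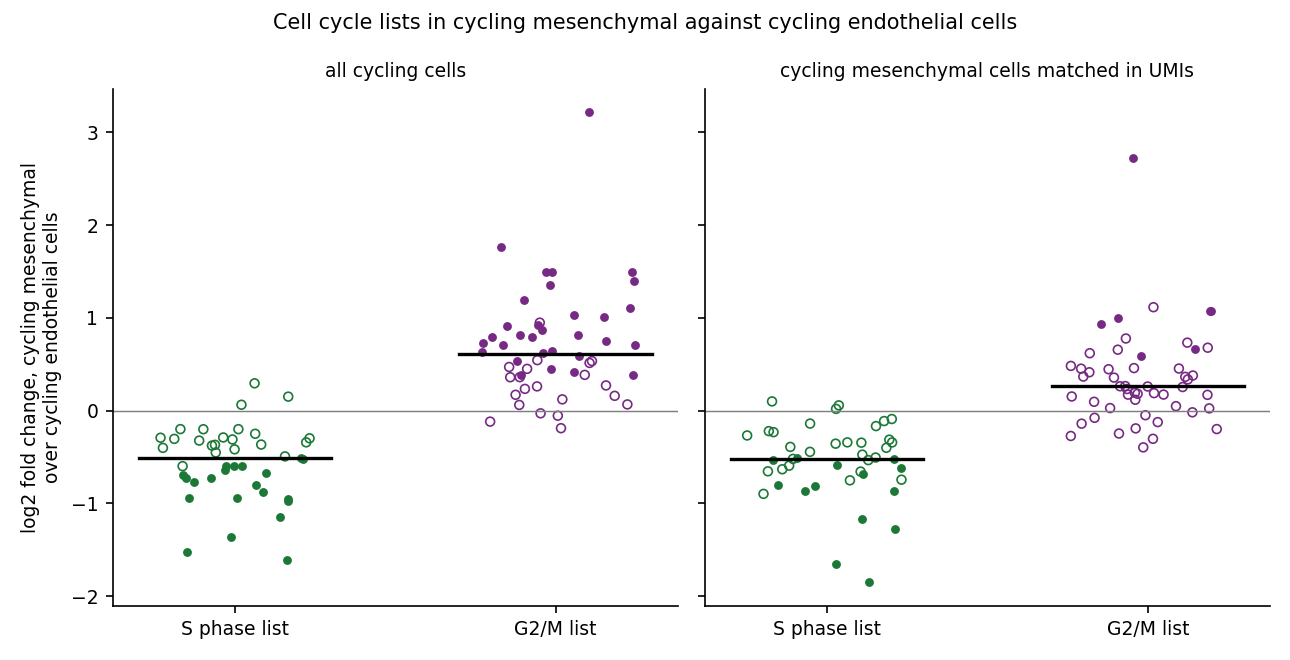
Log2 fold change of each tested gene of the S phase and G2/M lists, cycling mesenchymal over cycling endothelial cells, with all cells (left) and with members matched to the endothelial cells in UMIs (right). Filled points passed the test, open points did not and bars are list medians; after matching the S phase median was -0.52, from -0.51, and the G2/M median 0.26, from 0.61.

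Within the mesenchyme, members were then compared with non-cycling cells, to ask which other genes differ when a mesenchymal cell divides. Most tested genes of the chromatin and growth lists were higher in cycling cells, and 7 of 15 cardiomyocyte and 4 of 17 mural and smooth muscle genes were lower. Most matrix, signalling and lineage genes did not pass the test, as was true of all genes tested. The cycle lists differed by construction and are described without a test. CDK1, the kinase that drives mitosis, was at 265 and 253 CPM in members and 8.50 and 8.91 CPM in non-cycling cells, and the G2/M list summed to 9221 and 8648 against 1185 and 1227 CPM. The S phase list, which the rule did not name but whose genes follow the same cycle, summed to 3275 and 3430 against 833 and 888 CPM. The median log2 change was 4.28 over the G2/M list, 2.30 over the S phase list and 2.22 over 16 replication-dependent histone genes.

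Division genes outside the lists led the other changes and belong to the same description. DEPDC1 was at 74.2 and 71.8 against 1.10 and 1.65 CPM, and the mitotic kinesin genes KIF20A, KIF18B and KIF4A were at 30.9 and 29.3, 80.9 and 77.1, and 104 and 114 CPM against at most 3.18 CPM. ASPM, a spindle pole protein, and CEP55, needed for the final cut between daughter cells, differed by 5.49 and 5.46 on the log2 scale. Among the cyclins of the first growth phase the pattern was different. CCND2 stood at 64.2 and 65.3 CPM in members, below its 144 and 142 CPM in non-cycling cells, and CCND1 was at 61.2 and 68.5 against 48.2 and 48.9 CPM.

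Across 18292 genes, 1296 (7.09%) were higher and 584 (3.19%) lower in cycling mesenchymal cells (10.3% together) by the same test. With the organoid as a block these counts were 2324 (12.7%) and 1661 (9.08%). The median log2 change over these genes was -0.04. With non-cycling cells matched to members in UMIs the counts were 889 (5.47%) and 316 (1.94%). Of these, 837 and 233 were among the calls above.

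Without HMGB2 and UHRF1, which are also on the cycle lists, 16 of 22 genes of the chromatin list were higher and none lower (median 0.95). The histone variant gene H2AFZ was at 1386 and 1272 CPM in members and 370 and 369 CPM in non-cycling cells (log2 change 1.86 ± 0.12, edgeR adjusted p = 1.31e-06). HMGB1, a DNA-bending protein, was the most abundant of the list, at 2134 and 2091 against 828 and 816 CPM. DNMT1, which copies DNA methylation onto new strands, rose from 50.2 and 54.5 to 153 and 153 CPM, and EZH2, the histone methyltransferase of the polycomb complex, from 34.4 and 37.2 to 115 and 123 CPM. Members and non-cycling cells were well apart in both organoids for all 4 genes. The fetal growth genes HMGA1 and HMGA2, encoding chromatin proteins, rose by 0.89 and 0.86 on the log2 scale, and the HMGA2 call was lost in 1 setting. LIN28B, a fetal RNA-binding protein, did not pass (129 and 149 against 114 and 134 CPM, edgeR adjusted p = 0.491).

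Growth and nucleotide synthesis genes moved the same way, with 14 of 20 higher and none lower (median 0.66). TK1, thymidine kinase, was at 63.0 and 50.3 CPM against 4.95 and 5.91 CPM, a log2 change of 3.39 ± 0.19 (edgeR adjusted p = 2.38e-07). CTPS1, which makes CTP, was at 26.6 and 28.8 against 9.03 and 8.87 CPM. The smaller changes of the nucleolar gene NCL (0.49), the nuclear transport gene RAN (0.77), the purine enzyme gene PAICS (0.67) and the mitochondrial chaperone gene HSPD1 (0.76) also passed, with the call lost in 3 settings for NCL and in 1 each for RAN and PAICS. LDHA, of glycolysis, was the most abundant gene of the list and stood at 1300 and 1226 against 1368 and 1258 CPM (edgeR adjusted p = 0.878). In depth-matched cells 11 growth genes and 14 of those 22 chromatin genes were higher and none lower.

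**Figure D4:**
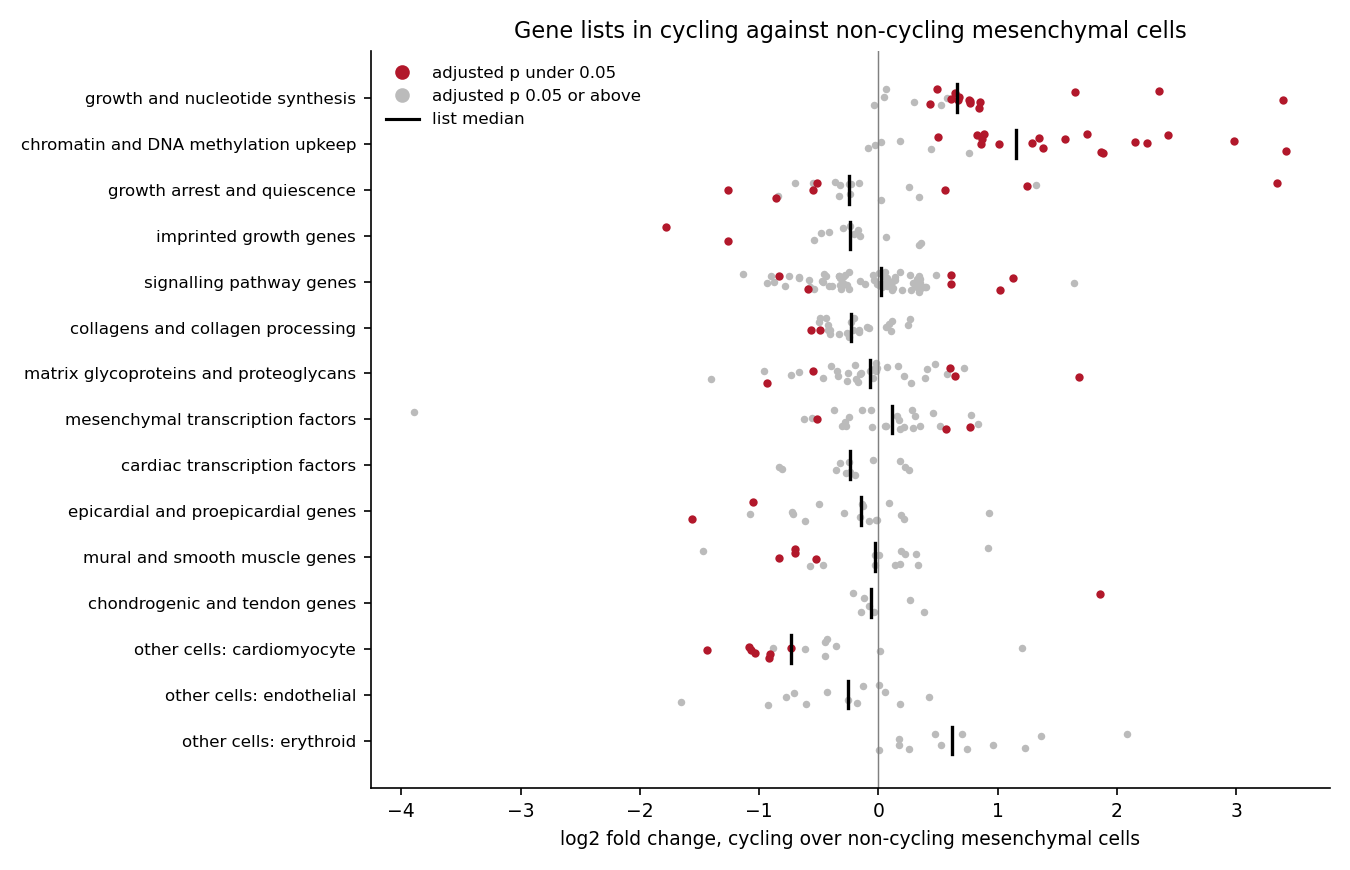
Log2 fold change (x axis) of cycling over non-cycling mesenchymal cells for the tested genes of 15 lists (rows), with genes past the test in red, others in grey and list medians as black bars. The chromatin and growth lists lay to the right (medians 1.15, with HMGB2 and UHRF1, and 0.66), the cardiomyocyte list to the left (-0.73), and the matrix glycoprotein and signalling lists around 0 (-0.07 and 0.03).

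Genes linked to growth arrest divided in both directions, with 3 of 21 higher and 4 lower (8 lower with the organoid block, and 2 each way in depth-matched cells). Among all tested genes 7.09% were higher and 3.19% lower (9.08% lower with the block, and 5.47% and 1.94% in depth-matched cells). CDKN1C, an imprinted inhibitor of cyclin-dependent kinases, fell from 354 and 180 CPM in non-cycling cells to 142 and 81.6 CPM in members (log2 change -1.26 ± 0.34, edgeR adjusted p = 0.0373). Its level differed between the organoids in both classes, and the call was lost in depth-matched cells (edgeR adjusted p = 0.0989). BTG1, an antiproliferative gene, was lower at 102 and 86.5 against 129 and 143 CPM. TXNIP, an inhibitor of glucose uptake, was lower at 243 and 270 against 375 and 386 CPM. The BTG1 call was lost in 2 settings, and that of TXNIP in depth-matched cells (edgeR adjusted p = 0.0974). GADD45G, a stress-induced growth arrest gene, was lower at 7.97 and 7.55 against 15.03 and 13.17 CPM, and CDKN1B, another inhibitor of cyclin-dependent kinases, higher at 33.6 and 31.4 against 22.4 and 22.1 CPM. Their calls were lost in 5 and 6 settings, depth matching among them. CDKN2D, an inhibitor of the kinases of early growth phase, went the other way, from 12.9 and 13.6 to 33.1 and 29.4 CPM (log2 change 1.25, edgeR adjusted p = 0.000495), with its relative CDKN2C at 4.98 and 3.32 against 0.302 and 0.487 CPM, whose call was lost in 1 setting. The p53 target CDKN1A did not pass (54.8 and 76.1 against 64.3 and 84.7 CPM). Of 13 imprinted growth genes, CDKN1C and DIO3, a thyroid hormone deiodinase, were lower and none higher. The DIO3 change went from -1.78 to -1.03 in depth-matched cells and did not pass there (edgeR adjusted p = 0.175). The growth factor IGF2 (230 and 229 against 327 and 350 CPM) and the abundant DLK1 (2429 and 1726 against 3241 and 2610 CPM) did not pass. Both passed without the filter on low counts, and IGF2 also in cells thinned to 5000 UMIs (log2 change -0.68, edgeR adjusted p = 0.0493).

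Some muscle genes were lower in cycling cells. Of 15 cardiomyocyte genes, 7 were lower (ACTC1, MYL7, PLN, RYR2, TNNI1, TNNT2 and TTN) and none higher (median -0.73). The list summed to 1207 and 1392 CPM in members, 2528 and 2617 CPM in non-cycling mesenchymal cells and 46254 and 39090 CPM in non-cycling cardiomyocytes, and the marker ACTN2, which did not pass (edgeR adjusted p = 0.152), was at 17.2 and 25.5, 25.9 and 34.3, and 401 and 363 CPM. TNNT2, cardiac troponin T, was at 202 and 278 against 459 and 562 CPM (log2 change -1.07 ± 0.21, edgeR adjusted p = 0.00671), and ACTC1, cardiac actin, at 47.8 and 59.0 against 150 and 143 CPM (-1.44). PLN, a brake on the calcium pump, was at 127 and 140 against 232 and 275 CPM (-0.91). Both members' sums lay below both non-cycling sums for these genes, and 7 of the 15 were lower in depth-matched cells. With 10% of each organoid's library-wide profile subtracted as free RNA, 6 of the 15 were lower, TNNT2, TNNI1, ACTC1 and PLN among them, and 10 were lower with high Scrublet scores removed.

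Of 17 mural and smooth muscle genes 4 were lower and none higher. ACTA2, smooth muscle actin, was at 166 and 176 CPM in members against 231 and 267 CPM (log2 change -0.52 ± 0.12, edgeR adjusted p = 0.0146). MYOCD, the coactivator that switches on smooth muscle genes, was at 16.7 and 25.7 against 34.3 and 36.6 CPM, and the filament gene DES and the actin nucleator gene LMOD1 fell by 0.70 and 0.84 on the log2 scale. The ACTA2 call held in all settings, those of DES and LMOD1 were lost in 2 and 6, and that of MYOCD in 1. The MYOCD change was -0.70 with all cells, -0.38 with cells thinned to 5000 UMIs (edgeR adjusted p = 0.316) and -1.21 in depth-matched cells (0.00288). In non-cycling cardiomyocytes ACTA2 was at 586 and 653 CPM, MYOCD at 581 and 690 CPM, LMOD1 at 63.9 and 91.1 CPM and DES at 18.6 and 19.6 CPM. The list median was -0.02, close to that of all genes, and 8 of the 17 changes were positive, with RGS5, the most abundant mural gene, at 539 and 600 CPM in members against 551 and 622 CPM and the actin-binding gene TAGLN at 162 and 128 against 130 and 136 CPM.

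Few matrix genes passed the test. Of 25 collagen and collagen processing genes 2 were lower, COL6A1 (305 and 315 against 417 and 467 CPM) and the prolyl hydroxylase gene P4HA2 (88.9 and 73.3 against 130 and 112 CPM), and none higher. The median change of the 25 was -0.23, and 6 changes were positive. With the organoid block 9 were lower, among them COL1A1 at 1102 and 867 against 1319 and 1184 CPM (edgeR adjusted p = 0.227 without and 0.0173 with the block) and COL1A2 (0.132 and 0.0324). The block also moved the lower share of all genes from 3.19% to 9.08%. In depth-matched cells none of the 25 passed. Of 35 matrix glycoprotein and proteoglycan genes 3 were higher and 2 lower, 6 and 10 with the block, and none either way in depth-matched cells. The shares of all tested genes were 7.09% higher and 3.19% lower, and 12.7% and 9.08% with the block. HAPLN1, which links hyaluronan to proteoglycans, was at 643 and 777 against 404 and 516 CPM (log2 change 0.65, edgeR adjusted p = 0.036), but at 0.20 (edgeR adjusted p = 0.584) in depth-matched cells. The small proteoglycan gene OGN was higher at 7.47 and 9.21 against 2.98 and 2.28 CPM, and its relative FMOD lower at 10.5 and 11.8 against 22.1 and 21.1 CPM.

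Transcription factor genes of the mesenchyme mostly did not pass the test, as was true of all genes. Of 28 tested, 2 were higher and 1 lower, a share near that of all tested genes. Of those, 7.09% were higher and 3.19% lower (10.3% together), and with the block 9.08% were lower. PRRX1 was higher at 91.4 and 109 CPM against 64.1 and 73.0 CPM (log2 change 0.57 ± 0.12, edgeR adjusted p = 0.0115), and MSX1, a factor of proliferating mesenchyme, at 74.4 and 65.8 against 43.2 and 39.9 CPM. NR2F2, a factor of atrial and venous fate, was lower at 38.6 and 35.0 against 55.3 and 50.6 CPM. None of the 3 passed in depth-matched cells, where the edgeR adjusted p was 0.355 for PRRX1, 0.0975 for MSX1 and 0.533 for NR2F2. The other 25 of 28 tested factors did not pass, including TWIST1 at 69.0 and 108 against 75.1 and 86.4 CPM. None of 12 cardiac factors passed, with GATA4 at 309 and 398 against 320 and 418 CPM, and 3 were lower with the block. Of 18 epicardial genes KRT19 and SFRP5 were lower (4 with the block), with KRT19, an epithelial keratin, at 300 and 198 against 636 and 401 CPM (log2 change -1.05, edgeR adjusted p = 0.0199). The SFRP5 call was lost in 5 settings. WT1 and TBX18 stood at 65.0 and 85.6 and at 44.8 and 48.6 CPM, against 68.6 and 92.9 and 43.6 and 51.6 CPM.

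Of 78 signalling genes 4 were higher and 2 lower, 13 and 11 with the block, and 1 and 2 in depth-matched cells. Of all tested genes 7.09% were higher and 3.19% lower. These shares were 12.7% and 9.08% with the block, and 5.47% and 1.94% in depth-matched cells. DKK1, a secreted inhibitor of WNT signalling, was at 170 and 191 CPM in members and 73.9 and 93.3 CPM in non-cycling cells (log2 change 1.13 ± 0.16, edgeR adjusted p = 0.00071). It was the one of the 6 that passed in all settings, with a log2 change of 1.02 in depth-matched cells. ETV4 and DUSP6, both induced by FGF signalling, were at 18.7 and 25.2 against 9.71 and 12.5 CPM and at 141 and 187 against 91.6 and 126 CPM. The hedgehog factor gene GLI2 was at 29.6 and 32.1 against 19.7 and 21.4 CPM. For these 3 the changes shrank to 0.64, 0.24 and 0.21 in depth-matched cells and did not pass. IGFBP3, which binds insulin-like growth factors, was lower at 380 and 248 against 593 and 535 CPM, and VEGFA, the endothelial growth factor, at 73.4 and 72.9 against 103 and 120 CPM. Both calls were lost in depth-matched cells, with changes of -0.44 and -0.39 (edgeR adjusted p = 0.265 and 0.122), so the 2 genes lower there were others.

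Other lower genes included CNTN5, a cell adhesion gene, at 34.9 and 62.2 against 172 and 139 CPM (log2 change -1.65, edgeR adjusted p = 0.000636). TM7SF2, a sterol reductase, was at 12.2 and 8.90 against 32.9 and 31.1 CPM, and PENK, an opioid peptide precursor, at 16.9 and 5.73 against 47.7 and 22.9 CPM. The PENK call was lost in 4 settings, whereas CNTN5 and TM7SF2 kept theirs in all. COL9A1 was the one chondrogenic gene of 8 to pass, at 7.22 and 11.3 against 1.78 and 3.48 CPM. Its change of 1.86 fell to 0.77 in cells thinned to 5000 UMIs, where it did not pass (edgeR adjusted p = 0.479). Of the markers of blood, endothelium and endoderm, TYROBP (macrophages) and APOA1 (liver) were lower, with calls lost in 3 settings and 1, and none of 13 endothelial, 12 erythroid and 9 megakaryocyte genes passed, although HBZ was at 745 and 1396 against 583 and 713 CPM. HBZ did pass without the filter on low counts and with high Scrublet scores removed. Its log2 change ran from -0.38 to 1.88 over the settings.

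Whether a gene changed with division in the same way in mesenchyme and endothelium was tested as a difference of the 2 changes. Of 18427 genes, 115 (0.624%) had a higher and 24 (0.13%) a lower change in mesenchymal cells, 0.754% together. With the organoid block these were 1048 and 160, and without TMM scaling 28 and 24, where the median of all genes moved from 0.25 to 0.05 and the share of higher calls from 82.7% to 53.8%. Most cycle list genes did not pass: 2 of 43 S phase genes had a lower and 6 of 52 G2/M genes a higher change. These counts were 5 and 16 with the block, 2 and 1 without TMM scaling, and none in depth-matched cells.

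APOLD1, known as an early response gene of endothelial cells, differed between the lineages. In mesenchyme it was at 99.6 and 73.9 CPM in members and 5.44 and 5.24 CPM in non-cycling cells, and in endothelium at 49.3 and 61.2 CPM and 43.2 and 37.5 CPM. Cycling mesenchymal cells thus held more APOLD1 than either endothelial class, and non-cycling mesenchymal cells far less. Cardiomyocytes also held more when cycling, with organoid means of 122 CPM in the 13 and 17 cycling cells and 20.7 CPM in non-cycling ones, which was not tested. Between mesenchyme and endothelium the difference of the log2 changes was 3.77 ± 0.26 (edgeR adjusted p = 0.000307) and passed in all settings. SYNE2, a nuclear envelope protein that ties the nucleus to the cytoskeleton, did the reverse. It was at 137 and 116 against 63.3 and 62.2 CPM in mesenchyme and at 106 and 122 against 11.28 and 11.01 CPM in endothelium (difference -2.15 ± 0.20, edgeR adjusted p = 0.00197, passing in all settings). The levels in the 2 cycling classes overlapped, and the non-cycling ones did not.

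GAS2L3, which links actin and microtubules during division, was at 41.1 and 35.8 against 1.13 and 1.05 CPM in mesenchyme and 25.1 and 29.5 against 5.01 and 5.83 CPM in endothelium. The G1 cyclin gene CCNE1 was at 24.9 and 21.6 CPM in members and at 20.3 and 13.8 CPM in non-cycling mesenchymal cells, while endothelial cells went from 1.02 and 1.19 to 14.7 and 19.7 CPM with division. The linker histone gene HIST1H1D was at 217 and 273 against 26.4 and 26.2 CPM and, in endothelium, at 320 and 317 against 7.58 and 9.22 CPM. With 3 further histone genes it made 4 of 16 with a lower change in mesenchyme (list median -1.45), 8 with the block and none in depth-matched cells. PTCHD1 was at 16.2 and 14.9 against 15.1 and 15.8 CPM in mesenchyme but stood at 23.3 and 25.2 against 131 and 116 CPM in endothelium. The calls of GAS2L3, HIST1H1D and CCNE1 were lost in depth-matched cells.

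Members varied among themselves, and 8 groups were found when their other genes were clustered without the cycle lists. The groups were formed from these genes, so the values are a description. Group 1 (46 and 78 cells) was led by the peptide gene NTS at 411 and 1381 CPM, FGF23 and the receptor gene CNTFR. In group 2 (62 and 46) the fibroblast proteoglycan genes DCN and LUM reached 239 and 133 and 861 and 677 CPM, with HAND1 at 417 and 220 CPM. Group 3 (45 and 48) had the natriuretic peptide receptor gene NPR3 at 193 and 159 CPM and the growth factor gene NRG3. The endothelial genes ESM1 and EMCN were also among its leading genes, at 87.8 and 53.7 CPM against 6.44 and 3.39 CPM in other members. In non-cycling endothelial cells NPR3 was at 192 and 189 CPM, NRG3 at 640 and 761 CPM and ESM1 at 1868 and 1981 CPM. Of the 93 cells of group 3, 13 had high doublet scores. Group 4 (22 and 53) held the neuropeptide genes TAC1, at 7946 and 4113 CPM, and NPY, with NKX2-5 at 70.6 and 55.5 CPM.

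Group 5 (22 and 52 cells) carried HGF at 291 and 327 CPM with the epicardial genes WT1 (136 and 202 CPM) and TBX18 (138 and 101 CPM). Group 6 (5 and 29) had TBX18 at 166 and 166 CPM with SLC8A1, the sodium-calcium exchanger, and MYOCD at 153 and 105 CPM. Group 7 (12 and 20) was led by globins and PF4, with HBZ at 16152 and 18899 CPM. Of its 32 cells 28 held at least 1% blood transcripts and 20 had high doublet scores. Group 8 was almost confined to organoid 33.10, with 28 cells against 1, and had the highest PRRX1 (411 CPM) with SFRP2 and MSX2 at 250 and 138 CPM in that organoid. G2/M UMIs exceeded S phase UMIs in most cells of each group, from 72.7% in group 6 to 93.1% in group 8. A lower clustering resolution gave 4 groups (adjusted Rand index 0.61 with the 8 groups) and a higher one 11 (0.72).

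To compare the cycling share between kinds of mesenchymal cell, all 6827 cells past the mesenchymal gate were clustered without the cycle lists, which gave 9 clusters. Cycling cells occurred in every one, in shares of 3.46% to 10.3% in organoid 32.7 and 3.23% to 15.6% in organoid 33.10. The cluster with AQP3, CFI and SFRP5 had low shares in both organoids, 3.46% (95% interval 1.95 to 5.65) and 3.45% (2.06 to 5.41). The cluster with NPNT, FRZB and DCN was at 4.38% and 3.23% and held 22.5% of gated cells in organoid 32.7 but 4.46% in 33.10. The neuropeptide-led cluster, with NPY, TAC1 and C7, was at 10.3% (6.30 to 15.6) and 13.3% (10.1 to 17.1). The cluster with KRT17, CEACAM1 and ROBO2 was at 9.27% and 14.5%, and that with PCDH11X, NPR3 and NRG3 at 8.46% (6.19 to 11.2) and 15.6% (12.4 to 19.2).

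Thinned to 5000 UMIs, the shares with at least 1 cycle UMI put the AQP3 cluster lowest (8.21% and 9.42%). The NPNT cluster, at 12.7% and 10.9%, was level with the PCDH11X cluster in organoid 32.7 and below it in organoid 33.10 (12.8% and 22.7%). The neuropeptide cluster had 15.7% and 18.8%, and the NTS, CRHBP and FGF23 cluster 18.5% and 19.7%. The highest thinned shares, 35.0% and 27.6%, were those of a cluster led by HBZ and other globins, in which 397 of 738 cells held at least 1% blood transcripts. Only 117 of its 431 cells in organoid 32.7 and 217 of 307 in organoid 33.10 reached 5000 UMIs (medians 3442 and 7928), and by the rule of 4 cycle UMIs its shares were 4.18% and 9.45%. A ninth cluster, of 147 cells, was led by the endothelial genes ESM1, ADGRL4 and ESAM, and 88 of its cells had high doublet scores. It took in 9 cells of group 3 and no other member. With non-cycling cells drawn in the cluster proportions of members, the changes of DKK1 (0.94), DNMT1 (1.53), TK1 (3.16), TNNT2 (-1.10) and ACTA2 (-0.65) all passed the test again, whereas 13 of the 71 named genes that had passed did not. Among those were DUSP6 (0.38), HAPLN1 (0.35), CDKN1C (-1.02), NR2F2 (-0.43), ETV4 (0.79) and IGFBP3 (-0.64).

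**Figure D5:**
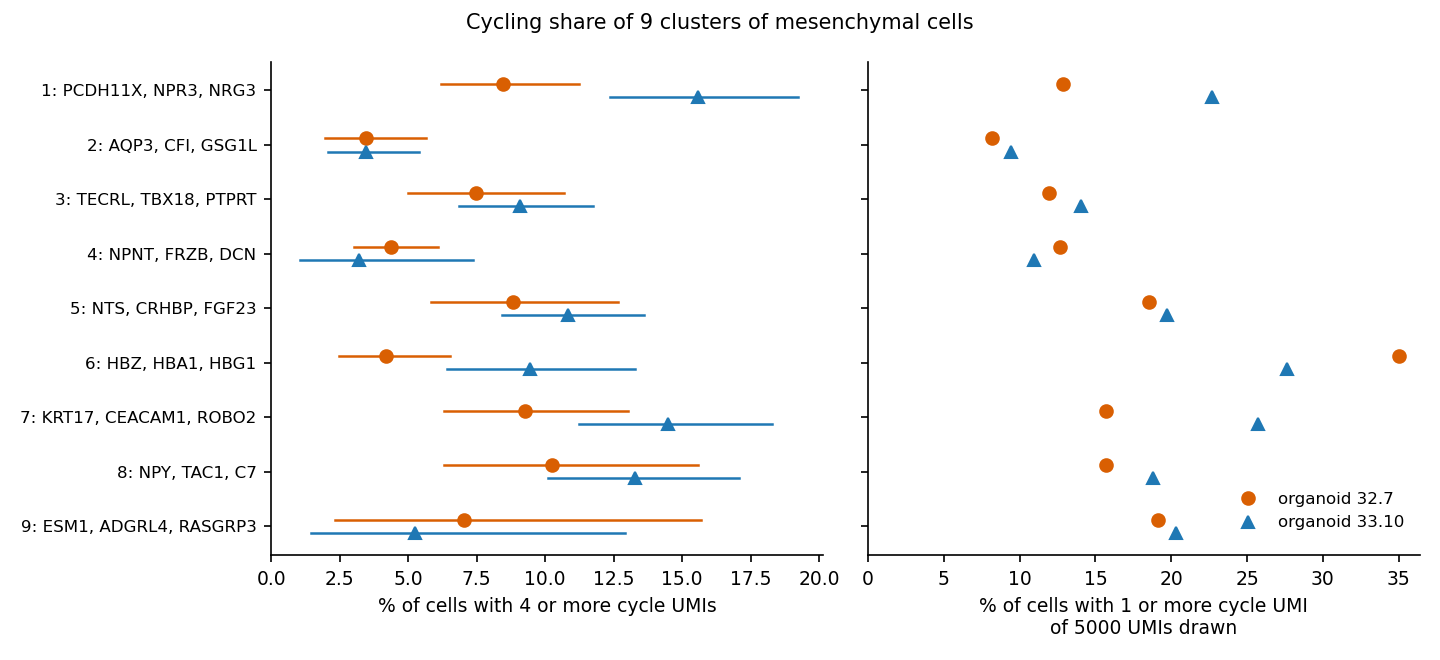
Share of cycling cells in 9 clusters of mesenchymal cells, named by 3 of their leading genes, with 4 or more cycle UMIs (left, lines are exact binomial 95% intervals) and with at least 1 cycle UMI of 5000 drawn (right). Circles are organoid 32.7 and triangles organoid 33.10; the AQP3 cluster lay at 3.46% and 3.45% and the neuropeptide cluster at 10.3% and 13.3%.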

How the data were processed

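The deposited files held raw UMI counts per gene and barcode that the authors made with Cell Ranger 7.0.0 on GRCh38 with intronic reads included, holding the barcodes called as cells, with no correction for free RNA. Here UMIs were summed per class and organoid and tested with edgeR 4.0.16 (glmQLFit, TMM, filterByExpr) in 1 fit of 5 classes. Classes were cycling and non-cycling mesenchymal and endothelial cells and non-cycling cardiomyocytes, all within the limits of the rule. Endothelial cells had CDH5 at least 3, COL3A1 at most 2 and MYH6 at most 3 UMIs, cardiomyocytes MYH6 at least 10, COL3A1 at most 2 and no CDH5. Adjusted p under 0.05 was called. Cycling cardiomyocytes, under 20 cells per organoid, stayed out of the fit. Clusters came from scanpy 1.11.5 with Leiden resolution 0.5, 15 components and 15 neighbours. Scrublet's own cutoff marked 0 barcodes in organoid 32.7 and 3818 in organoid 33.10. Doublets were therefore kept in the classes, and the top-scoring 13.6% and 16.2% were removed as an alternative. The 2 libraries shared 100 barcode sequences.

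The classes of an organoid came from the same organoid and are paired. Deviations of the 2 organoids correlated in all 10 pairs of classes (Pearson r 0.136 to 0.635 over 13242 genes), so fits with the organoid as a block were run beside those without. The members, gene lists and tests were chosen with earlier results of these data known. Named genes were the markers, members of the lists with the highest level or largest change, and leading genes with at least 20 CPM and adjusted p under 0.05. Promoter sequences matched 45 of 54 G2/M and 32 of 43 S phase genes. Intervals cover counting error only.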

Additional observations from a re-analysis of the deposited data

Results flagged for a closer look

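The 6 genes given here had a cycling against non-cycling change that differed between mesenchymal and endothelial cells by the test of the difference itself. The log2 difference of the changes was 3.77 for APOLD1, 2.99 for GAS2L3 and 2.55 for PTCHD1, all higher in mesenchyme. It was -2.15 for SYNE2, -1.83 for HIST1H1D and -3.31 for CCNE1. In each organoid taken alone the sign was the same, with APOLD1 at 3.94 and 3.10, SYNE2 at -2.13 and -2.53, and CCNE1 at -3.38 and -3.20. APOLD1 and SYNE2 passed in all 14 alternative settings (edgeR's test, DESeq2 in 1), with highest adjusted p-values of 0.00109 and 0.044. PTCHD1 and HIST1H1D lost the call in 1 setting, GAS2L3 in 3 and CCNE1 in 4. The 6 genes were taken from the 139 past the test with the largest changes or as list members, so their sizes are not independent of that choice.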

How the results depend on the processing

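Members were deeper than non-cycling cells, and raw UMI thresholds set both classes. Of 71 named genes called between cycling and non-cycling mesenchymal cells, 31 were called in all 14 settings tested and 29 lost the call with depth-matched non-cycling cells; the cause was not tested. None of the 71 changed sign in these settings or with 1 organoid left out. Of the 12 named genes that did not pass, TWIST1, TBX18, LIN28B, LDHA, HBZ, PF4 and EGFL7 did. Unadjusted p was under 0.05 for 4610 genes in that comparison, 7585 against endothelium and 3027 for the difference of changes.

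With the organoid as a replicate block, counts of higher and lower genes were 2324 and 1661 within mesenchyme (1296 and 584 without) and 1048 and 160 for the difference of changes (115 and 24 without). Against cycling endothelium they were 3720 and 2685 (3204 and 2341 without). List counts that the block moved by over 1.5 times stand beside those lists in the report.

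Within mesenchyme the lower count became 923 with DESeq2, 1332 without the filter on low counts, 316 with depth-matched cells and 906 without cells rich in blood transcripts. Thinning to 5000 UMIs gave 685 and 258, and cycling cells matched in depth 763 higher. Against cycling endothelium, thinning gave 1418 higher and 920 lower, a minimum rate of 400 cycle UMIs per 1000000 gave 2023 higher and depth matching of cycling cells 1942. The S phase genes lower there were 7 with thinning and 9 with at least 8 cycle UMIs, and the G2/M genes higher 19 with thinning and 7 with matched cycling cells. For the difference of changes, the counts were 28 higher without TMM, and higher and lower 892 and 152 without the filter, 29 and 14 depth-matched, 33 and 5 thinned, 189 and 48 without high Scrublet scores, 42 and 45 without blood-rich cells and 14 and 14 at that rate. DESeq2 gave 152 lower, COL3A1 of at least 10 UMIs 25 higher, matched cycling cells 11 higher and subtraction of the library profile 71 lower. The settings without blood-rich cells, by rate and with matched cycling cells were chosen after seeing the data, as was matching in cluster makeup.

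The mean cycling share of 8.30% became 4.88% at 8 cycle UMIs and 4.47% in thinned cells, and lay between 6.42% and 10.2% with 1 organoid left out. The median of 34 G2/M UMIs became 39.25 at 8 cycle UMIs, 34.44 from scaled UMIs, 34.5 without blood-rich cells and 35 without high Scrublet scores. Left-out organoids gave 14 and 15 S phase UMIs. Groups numbered 4 at a resolution of 0.3. Fits without 1 organoid leave no residual degrees of freedom, so their changes are values with no test.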
